A study of Mus musculus with 8 samples.

Results

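Serum amyloid A genes and other genes of the acute phase were followed in sorted pancreatic tumour cells of mice that received, during chemotherapy, an antibody against the cytokine LIF (leukaemia inhibitory factor) or control IgG. The genes were picked by symbol: Saa1, Saa2, Saa3, Saa4, Lcn2, Hp, Itih4, Orm1, Orm2 and Ptx3, which are 10 of the 24537 genes in the count table, and all 10 have a row there. The tumours came from FVB/NJ mice whose alleles included floxed p53 (Tp53f/f), the luciferase reporter Rosa26LSL-Luc and Pdx1-Cre. The Pdx1 promoter drives Cre in the pancreas, so that p53 is lost and luciferase is switched on there in both arms, whose mice shared 1 genotype. Treatment began at 42 to 43 days of age. One arm received anti-LIF antibody with gemcitabine (4 tumours, first KPCL-PCC_227_GA, then KPCL-PCC_310_GA, next KPCL-PCC_354_GA and last KPCL-PCC_391_GA) and the other received control IgG with gemcitabine (4 tumours, first KPCL-PCC_203_G, then KPCL-PCC_343_G, next KPCL-PCC_345_G and last KPCL-PCC_393_G). Gemcitabine, a nucleoside analogue that blocks DNA synthesis, was given to every mouse on days 1 and 4 at 50 mg/kg, so no arm lacks it, and each antibody was dosed at 25 mg/kg on days 1, 3 and 5. Each tumour was taken on day 6, dissociated and sorted for cells with EpCAM, an epithelial surface protein, and 1 polyadenylated RNA library was made per mouse. Wherever 4 values of an arm are listed, they follow this order of the tumours.

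The acute phase is the rise in certain plasma proteins that follows infection, injury or tumour growth. Liver cells make most of these proteins when IL-6, LIF and related cytokines act through the shared receptor chain gp130 (gene Il6st) and the transcription factor STAT3, together with IL-1 and TNF acting through NF-kappaB and C/EBP factors. LIF binds its own receptor chain, Lifr, beside gp130. Several acute-phase genes are also transcribed outside the liver: in mice, Saa3 is made by macrophages, fat cells and inflamed epithelium, and Lcn2 by neutrophils and injured epithelium.

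Counts in genes ran from 15135457 to 18972281 per library. The sorted cells were checked against marker lists, each summed as a percent of the counts in genes. Epithelial markers made up 0.325 ± 0.0881% in anti-LIF tumours and 0.725 ± 0.0604% in IgG tumours (SD, n = 4 each), and Epcam itself, in CPM (counts scaled to a common library size after TMM normalisation), was at 305 ± 74.8 CPM with anti-LIF and 575 ± 76.8 CPM with IgG. Markers of 2 other cell types were higher in every anti-LIF tumour than in any IgG tumour. Acinar (digestive enzyme) markers made up 0.301 to 1.59% in anti-LIF tumours and 0.0418 to 0.212% in IgG tumours, with Amy2a5 at 0 everywhere. Macrophage markers made up 2.23 to 4.06% in anti-LIF tumours and 1.04 to 1.46% in IgG tumours. By the edgeR test given below, 15 of 19 tested acinar and 10 of 14 macrophage markers rose, beside 15.7% of all tested genes. Of 17 epithelial markers 15 fell, beside 16.5% of all tested genes. Mesothelial and adipocyte markers were lower in every anti-LIF tumour than in any IgG tumour. Mesothelial markers made up 0.0199 ± 0.0102% with anti-LIF and 0.0629 ± 0.0201% with IgG, and 1 of 7 tested fell, Msln, while the other 6 did not pass and had higher means with anti-LIF. Adipocyte markers made up 0.000525 ± 0.000266% with anti-LIF and 0.00218 ± 0.000838% with IgG, and 1 of 2 tested fell, Fabp4. Exact two-sided permutation p was 0.0286 for each of these 5 lists, the smallest that 4 against 4 libraries allow. Since 16.5% of all tested genes fell, nothing is read from 1 of 7 mesothelial or 1 of 2 adipocyte markers. Among all tested genes taken singly, the arms did not overlap for 17.6% on the higher side and 18.2% on the lower side. Neutrophil markers (0.0228 to 0.0496% with anti-LIF, 0.0129 to 0.0373% with IgG, exact permutation p = 0.2) and hepatocyte markers (0.00143 to 0.0403% with anti-LIF, 0.00449 to 0.0186% with IgG, exact permutation p = 0.743) overlapped between the arms, as did fibroblast, endothelial and islet markers. In RNA from sorted bulk cells, a change in the share of a cell type and a change in RNA per cell cannot be told apart. The part of these cell types in the results below was not tested unless a value is given.

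With anti-LIF, 3 of the 10 genes rose, Saa1, Saa3 and Itih4, each by 9.41-fold or more, and 1, Orm1, fell, a call that was lost when any of 5 single libraries was left out. Lcn2, Hp, Orm2 and Ptx3 did not pass the threshold, and Saa2 and Saa4 had too few counts to be tested. Of all genes in the table, 14711 passed the filter on low counts and were tested, by edgeR's quasi-likelihood test with Benjamini-Hochberg adjustment over all of them. An adjusted p under 0.05 was reached by 4731 genes, which is 32.2% of those tested, with 15.7% higher and 16.5% lower. Without IgG tumour KPCL-PCC_343_G the number was 2974. The 8 tested genes of the set had a median log2 fold change of 0.78, beside -0.0063 for all tested genes. Saa1 passed the filter only through the anti-LIF arm, so this median is a description only. The CPM of the arms did not overlap for Saa1, Saa3 and Itih4, all higher with anti-LIF; among all tested genes that held for 17.6% on that side and 35.7% on either side. Since Saa1 was tested through its high arm alone and 2 of the 10 were not tested, nothing is read from that count.

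The scaling of the libraries sets the zero of these fold changes. Scaled by library size alone, the median of all tested genes was -0.16 and calls split into 1430 higher and 3567 lower, beside 2303 and 2428 with TMM. Tests on log2(FPKM + 1) split into 1503 higher and 3218 lower. Scaled to the epithelial marker list, so that epithelial transcripts are level between the arms, the median of all genes was 1.06, 11376 genes were called higher and 158 lower, and 7 of the 8 tested genes of the set were called higher. Saa1, Saa3 and Itih4 were higher with anti-LIF under every scaling, by 5.83, 4.56 and 4.30 on the log2 scale when scaled to the epithelial list. The acinar score follows the arm closely (Pearson r = 0.87 across the 8 libraries, with the arms as its clusters). With that score as a covariate edgeR called 0 of 14711 genes, with 1014 at an unadjusted p under 0.05, so none of the calls given below was made in that fit.

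**Figure D1:**
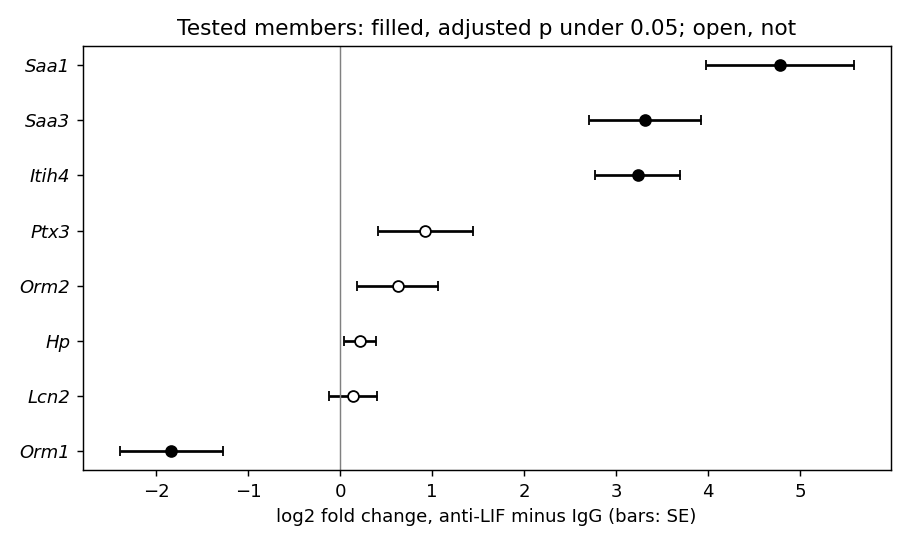
Log2 fold change of the 8 tested acute-phase genes (anti-LIF minus IgG, horizontal axis; bars are the standard error, 4 libraries per arm); filled points had an adjusted p under 0.05. Saa1, Saa3 and Itih4 lie to the right between 3.23 and 4.78, Orm1 lies to the left at -1.83, and the other 4 have open points.

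Saa3 carried nearly all serum amyloid A transcripts. This gene (NM_011315, mm10 chromosome 7, 46711998 to 46715676, minus strand) encodes the mouse serum amyloid A that is made mainly outside the liver. Its level was 7200.0, 2267, 907 and 2714 CPM in the 4 anti-LIF tumours, against 484, 210.2, 236 and 385 CPM in the 4 IgG tumours. Every anti-LIF tumour was above every IgG tumour, and tumour KPCL-PCC_227_GA stood far above the other 3 of its arm. The means were 3272 ± 2729 CPM with anti-LIF and 329 ± 129 CPM with IgG, a log2 fold change of 3.31 ± 0.61 (SE) or 9.95-fold, with an adjusted p of 0.00638 by edgeR. Without tumour KPCL-PCC_227_GA the log2 fold change was 2.58 ± 0.42 with an adjusted p of 0.00560. In counts, Saa3 made up 0.607% of all counts in genes in anti-LIF tumour KPCL-PCC_227_GA and 0.0886% in anti-LIF tumour KPCL-PCC_354_GA, against 0.0522% in the highest IgG tumour. Per length, Saa3 stood 3rd among all genes in anti-LIF tumours KPCL-PCC_227_GA, KPCL-PCC_310_GA and KPCL-PCC_391_GA and 22nd in KPCL-PCC_354_GA, against 29th, 82nd, 79th and 39th in the 4 IgG tumours.

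Tumour KPCL-PCC_227_GA was also the one with the most macrophage marker counts, 4.06% against 2.23 to 2.62% in the other 3 anti-LIF tumours. Neither list followed the order of Saa3 throughout. For macrophage markers the lowest anti-LIF tumour was KPCL-PCC_310_GA, at 2.23%. In the IgG arm macrophage markers were highest in tumour KPCL-PCC_345_G, at 1.46%, where Saa3 was at 236 CPM. Saa3 was highest of that arm in KPCL-PCC_203_G, at 484 CPM, with 1.39% macrophage markers. For acinar markers tumour KPCL-PCC_354_GA was the highest of its arm, at 1.59%, and it was the lowest for Saa3. Saa3 is expressed by macrophages, fat cells and epithelium, and which cells gave these reads was not tested. Neutrophil granule genes differed widely in level: Camp was at 0.382 CPM with anti-LIF and 0.353 CPM with IgG and was not tested, while Ltf was at 79.1 ± 59.9 CPM with anti-LIF and 76.0 ± 42.2 CPM with IgG (adjusted p = 0.958) and Prtn3 at 54.2 ± 46.2 CPM with anti-LIF and 26.4 ± 6.28 CPM with IgG (adjusted p = 0.136). Of 9 tested neutrophil markers 1 rose and 0 fell by edgeR, with 2 higher and 2 lower at an unadjusted p under 0.05. The 2 lower were Mmp8, at 10.3 ± 6.10 CPM with anti-LIF and 24.8 ± 8.79 CPM with IgG (adjusted p = 0.0779), and S100a8, at 13.9 ± 8.58 CPM with anti-LIF and 28.4 ± 7.23 CPM with IgG (adjusted p = 0.0802). S100a9, on the same list, had a log2 fold change of 0.32 and did not pass. The 2 higher were Csf3r and Mmp9, and Mmp9 did not pass (107 ± 43.8 CPM with anti-LIF and 41.6 ± 31.7 CPM with IgG, adjusted p = 0.103). The one that rose was Csf3r, the receptor for G-CSF, at 111 ± 46.1 CPM with anti-LIF and 34.3 ± 15.9 CPM with IgG (3.24-fold higher, adjusted p = 0.00969).

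**Figure D2:**
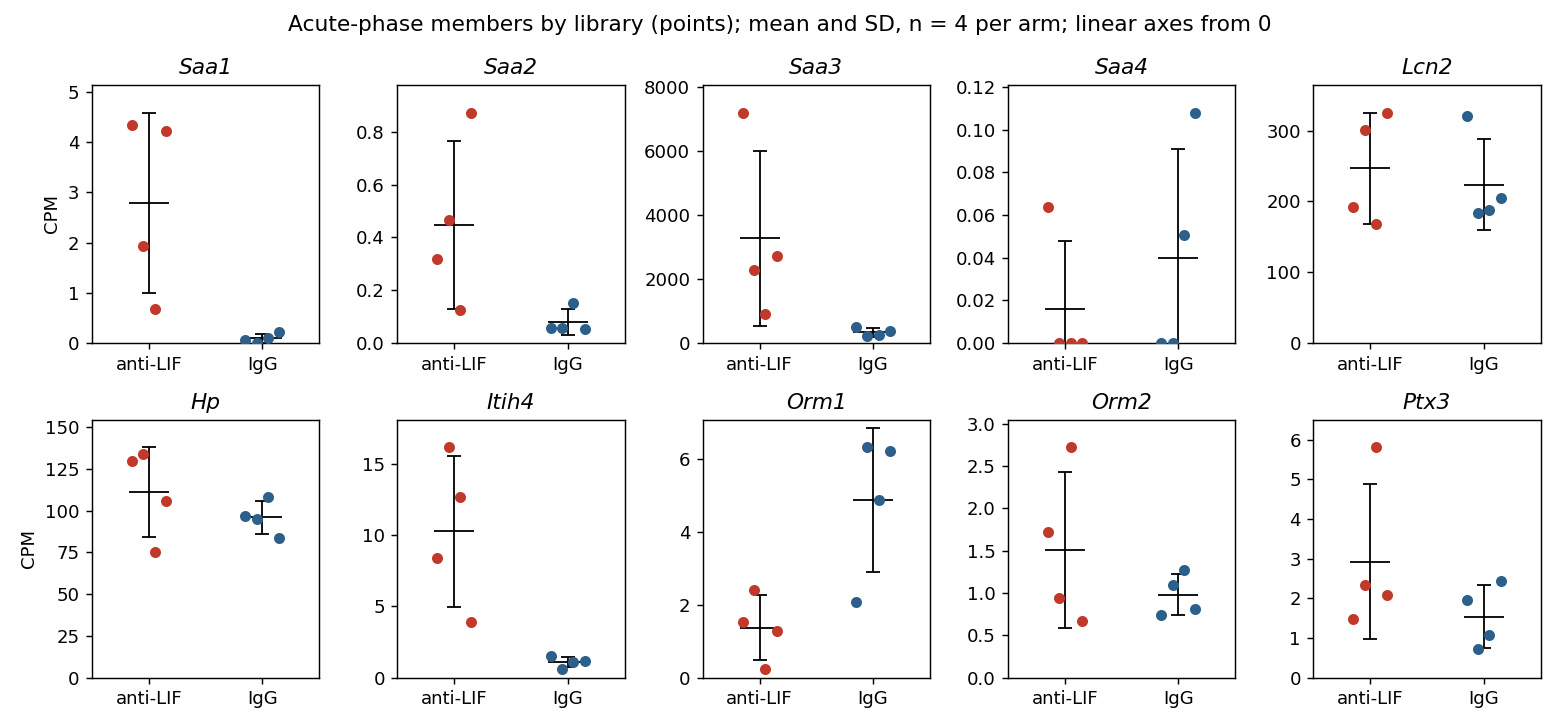
CPM of each of the 10 genes in each library (points), with the mean and SD of each arm (n = 4), anti-LIF left and IgG right, on linear axes from 0. The arms do not overlap for Saa1, Saa3 and Itih4; Saa3 reaches 7200.0 CPM in anti-LIF tumour KPCL-PCC_227_GA and at most 484 CPM with IgG.

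Saa1 (NM_009117, mm10 chromosome 7, 46740499 to 46742980, minus strand) encodes a plasma serum amyloid A that is carried on high-density lipoprotein and is secreted in bulk by the inflamed liver. It was at 4.34, 1.94, 0.680 and 4.23 CPM in the 4 anti-LIF tumours, against 0.0573, 0, 0.101 and 0.216 CPM in the 4 IgG tumours. These levels rest on 68, 29, 11 and 63 counts with anti-LIF and on 1, 0, 2 and 4 counts with IgG. The arms did not overlap, and the 0 in tumour KPCL-PCC_343_G allows a level of up to 0.165 CPM there (3 counts; counting error only). Saa1 averaged 2.80 ± 1.80 CPM with anti-LIF and 0.0937 ± 0.0916 CPM with IgG (SD, n = 4 each), a log2 fold change of 4.78 ± 0.80 with an adjusted p of 0.00492 by edgeR. Without IgG tumour KPCL-PCC_393_G, which holds 4 of the 7 IgG counts, it was 5.51 ± 0.96.

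Saa2 (NM_011314, mm10 chromosome 7, 46751833 to 46754314, plus strand) encodes the near twin of the Saa1 protein. It had 5, 7, 2 and 13 counts in the 4 anti-LIF tumours, against 1, 1, 3 and 1 in the 4 IgG tumours. The arms overlapped, because anti-LIF tumour KPCL-PCC_354_GA lay below IgG tumour KPCL-PCC_345_G. Its mean was 0.446 ± 0.318 CPM with anti-LIF and 0.0796 ± 0.0483 CPM with IgG (SD, n = 4 each), with an exact two-sided permutation p of 0.0571. Without the filter on low counts edgeR gave it a log2 fold change of 2.35 ± 0.68 with an adjusted p of 0.0350 over 19906 genes. Saa4, whose product is a serum amyloid A present in plasma at a steady level (NM_011316, mm10 chromosome 7, 46727992 to 46732603, minus strand), had 1 count over the anti-LIF arm and 3 counts over the IgG arm, at or under the floor of 3 counts in both.

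Saa1 and Saa2 are so alike that reads may be assigned to either. Their transcripts share 94.4% of 606 aligned bases, with an identical run of 99 bases, and no source used here says how the counting treated reads that match both. Summed, Saa1 and Saa2 were at 3.24 ± 2.01 CPM with anti-LIF and 0.173 ± 0.105 CPM with IgG (SD, n = 4 each), with an exact two-sided permutation p of 0.0286, and the arms did not overlap. Saa3 shares 70.2% of its aligned bases with Saa1 and 70.5% with Saa2, with identical runs of at most 58 bases. Saa3 held between 99.8 and 99.98% of all serum amyloid A counts in each of the 8 libraries. Whether any Saa1 counts came from Saa3 reads was not tested.

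Saa1, Saa2 and Saa3 are shown with the 250 bases before their start sites, because Saa1 and Saa2 are near copies there as well and Saa3 is not. The sequences are from RefSeq on GRCm38.p6, the assembly of mm10, each written 5′ to 3′ on the strand of the gene: Saa1 is chr7:46742981-46743230 on the minus strand, Saa2 is chr7:46751583-46751832 on the plus strand and Saa3 is chr7:46715677-46715926 on the minus strand. Capitals mark a match to TTNNGNAAT, a C/EBP motif, searched on both strands.
Saa1: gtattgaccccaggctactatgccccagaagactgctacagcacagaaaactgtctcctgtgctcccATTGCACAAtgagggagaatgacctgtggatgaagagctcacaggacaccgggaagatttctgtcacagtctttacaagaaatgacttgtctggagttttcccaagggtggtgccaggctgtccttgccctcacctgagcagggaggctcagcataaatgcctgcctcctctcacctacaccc
Saa2: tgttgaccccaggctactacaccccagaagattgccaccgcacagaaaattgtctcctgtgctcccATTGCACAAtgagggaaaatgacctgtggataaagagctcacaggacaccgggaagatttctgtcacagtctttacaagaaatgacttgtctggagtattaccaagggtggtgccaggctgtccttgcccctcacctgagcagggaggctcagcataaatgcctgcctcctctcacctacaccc
Saa3: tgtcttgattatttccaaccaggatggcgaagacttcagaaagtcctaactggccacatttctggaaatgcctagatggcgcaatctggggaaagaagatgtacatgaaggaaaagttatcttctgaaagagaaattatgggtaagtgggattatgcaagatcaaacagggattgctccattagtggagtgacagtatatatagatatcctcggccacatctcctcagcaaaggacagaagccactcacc
The Saa1 and Saa2 windows were identical at 95.6% of aligned bases. The C/EBP match, the same 9 letters on the minus strand, begins 183 bases before the start of Saa1 and 184 bases before the start of Saa2. No match lay in the Saa3 window. Of all 32851 promoter windows in the RefSeq table (250 bases before to 50 after the start), 11.5% hold this motif, so a match in 2 of the 3 genes is a description of the letters only. A STAT motif (TTCNNNGAA, in 8.3% of windows) and the kappaB motif (8.46%) had no match in the 3 windows.

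The Saa genes lie within 42317 bases of chromosome 7. Within 100 kb of any Saa gene, 6 other genes were tested and 1 rose. Of all tested genes 15.7% rose, so nothing is read from that count. The gene that rose was Hps5, which encodes a subunit of a complex that forms lysosome-related organelles. It was at 96.9 CPM with anti-LIF and 59.0 CPM with IgG (log2 fold change 0.72 ± 0.14, adjusted p = 0.00808 by edgeR). When scaled to the epithelial list Hps5 had 1.83. Saal1, only 1347 bases from Saa3, had a log2 fold change of 0.14 ± 0.10 and did not pass. The other 4, Tph1, Gtf2h1, Sergef and Ldha, lay between -0.33 and 0.17 and did not pass.

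**Figure D3:**
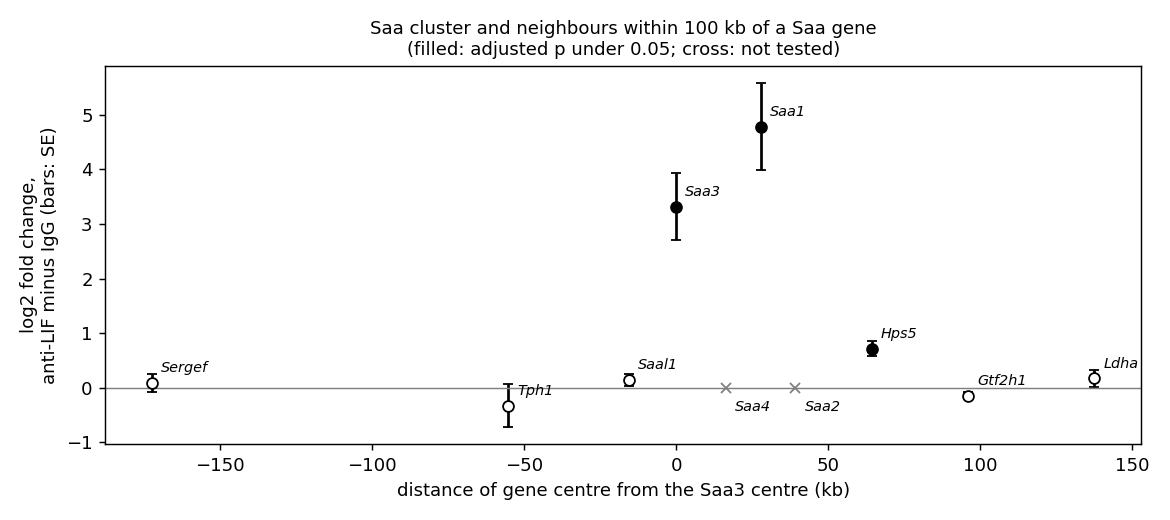
Log2 fold change (anti-LIF minus IgG, bars are the standard error) against the distance in kb of each gene's centre from the centre of Saa3, for the Saa cluster and genes within 100 kb. Saa1 (4.78) and Saa3 (3.31) stand above their neighbours, which lie between -0.33 and 0.72; crosses at 0 mark Saa2 and Saa4, which were not tested.

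Itih4 also rose. It encodes a heavy chain of the inter-alpha-trypsin inhibitor family, a plasma protein made chiefly by the liver (NM_018746, mm10 chromosome 14, 30886476 to 30901986, plus strand). It was at 8.37, 16.2, 12.7 and 3.90 CPM in the 4 anti-LIF tumours, against 1.49, 0.604, 1.06 and 1.19 CPM in the 4 IgG tumours. The arms did not overlap, and the order of the anti-LIF tumours differed from that of Saa3: tumours KPCL-PCC_310_GA and KPCL-PCC_354_GA were high and KPCL-PCC_391_GA was low. Itih4 averaged 10.3 ± 5.31 CPM with anti-LIF and 1.09 ± 0.369 CPM with IgG (SD, n = 4 each), a log2 fold change of 3.23 ± 0.46 or 9.41-fold with an adjusted p of 0.00385 by edgeR. Acinar markers moved with it: 1.59, 0.862 and 0.724% of counts in anti-LIF tumours KPCL-PCC_354_GA, KPCL-PCC_310_GA and KPCL-PCC_227_GA, where Itih4 was highest, 0.301% in tumour KPCL-PCC_391_GA, and at most 0.212% with IgG. Adjusted for the acinar score, Itih4 had a log2 fold change of 1.08 ± 0.58 with an adjusted p of 0.718. That fit called 0 of 14711 genes, and in it Saa1 had 6.36 (adjusted p = 0.696) and Saa3 2.82 (adjusted p = 0.710). The score and the arm cannot be told apart, so nothing is read from the loss of the call.

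The promoter of Itih4 is shown because it holds the one STAT match among the 8 genes of the set that had a promoter window. It is chr14:30886226-30886475 on the plus strand (RefSeq, GRCm38.p6), with the match to TTCNNNGAA in capitals.
Itih4: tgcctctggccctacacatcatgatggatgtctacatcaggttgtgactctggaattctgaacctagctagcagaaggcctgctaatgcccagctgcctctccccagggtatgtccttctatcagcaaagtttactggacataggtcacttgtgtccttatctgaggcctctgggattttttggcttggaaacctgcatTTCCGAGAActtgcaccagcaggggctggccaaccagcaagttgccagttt
The match begins 51 bases before the start, and both strands hold the motif there. Promoter windows were in the RefSeq table for 8 of the 10 genes, and those of Hp and Orm1 were missing. Of all windows there, 8.3% hold the STAT motif, so the match is a description of the letters only. Orm2 had a C/EBP match that begins 109 bases before the start. Ptx3 had 2 overlapping kappaB matches, 1 across its start and 1 from the start onward. Lcn2 and Saa4 had no match to the 3 motifs. The neighbours of Itih4 that encode other heavy chains of the family were nearly silent: Itih3 was at 0.127 CPM with anti-LIF and 0.220 CPM with IgG, and Itih1 at 0.611 CPM with anti-LIF and 0.230 CPM with IgG, and neither was tested.

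Orm1 was lower with anti-LIF, the one gene of the set called in that direction. Orm1 and Orm2 encode alpha-1-acid glycoproteins, carriers of small molecules in plasma. Orm1 (NM_008768, mm10 chromosome 4, 63344556 to 63348163, plus strand) was at 1.53, 2.404, 0.247 and 1.28 CPM in the 4 anti-LIF tumours, against 2.06, 6.31, 4.86 and 6.22 CPM in the 4 IgG tumours. The arms overlapped, since anti-LIF tumour KPCL-PCC_310_GA lay above IgG tumour KPCL-PCC_203_G. The means were 1.36 ± 0.888 CPM with anti-LIF and 4.86 ± 1.98 CPM with IgG (SD, n = 4 each; 83 counts with anti-LIF and 362 with IgG), a log2 fold change of -1.83 ± 0.56 with an adjusted p of 0.0358 by edgeR and an exact two-sided permutation p of 0.0571. The call was lost when any one of these was left out: anti-LIF tumours KPCL-PCC_227_GA and KPCL-PCC_391_GA and IgG tumours KPCL-PCC_343_G, KPCL-PCC_345_G and KPCL-PCC_393_G (adjusted p = 0.0592, 0.0776, 0.0896, 0.0668 and 0.0813), and when scaled to the epithelial list (-0.82 ± 0.51, adjusted p = 0.1504).

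Orm2 (NM_011016, mm10 chromosome 4, 63362449 to 63365877, plus strand) was at 1.72, 0.935, 2.72 and 0.672 CPM in the 4 anti-LIF tumours, against 0.746, 1.10, 1.27 and 0.811 CPM in the 4 IgG tumours. Tumour KPCL-PCC_354_GA, the lowest of its arm for Orm1, was the highest for Orm2, and the arms overlapped. The log2 fold change was 0.62 ± 0.44 with an adjusted p of 0.298. Orm1 and Orm2 transcripts share 91.0% of aligned bases with an identical run of 141, so single reads may be assigned to either. Orm3, the third gene of the cluster, was at 0.111 CPM with anti-LIF and 0.257 CPM with IgG and was not tested.

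Lcn2 and Hp were abundant in both arms, and neither passed the threshold. Lcn2 (NM_008491, mm10 chromosome 2, 32384637 to 32387739, minus strand) encodes lipocalin-2, which captures bacterial siderophores and so withholds iron. It was at 192, 301, 168 and 325 CPM in the 4 anti-LIF tumours, against 319.9, 183, 188 and 204 CPM in the 4 IgG tumours. The arms overlapped throughout, and the one high IgG tumour, KPCL-PCC_203_G, was level with the highest anti-LIF tumour. The log2 fold change was 0.14 ± 0.26 with an adjusted p of 0.701, and its sign turned to negative by library size alone (-0.0076) and without anti-LIF tumour KPCL-PCC_391_GA (-0.02). Haptoglobin, encoded by Hp (NM_017370, mm10 chromosome 8, 109575128 to 109579172, minus strand), binds free haemoglobin. It was at 129.6, 133.5, 75.4 and 105 CPM in the 4 anti-LIF tumours, against 96.7, 94.9, 108 and 83.8 CPM in the 4 IgG tumours. Anti-LIF tumours KPCL-PCC_227_GA and KPCL-PCC_310_GA were above all IgG tumours and KPCL-PCC_354_GA was below all of them. The log2 fold change was 0.21 ± 0.17 with an adjusted p of 0.375.

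Ptx3 (NM_008987, mm10 chromosome 3, 66219887 to 66225806, plus strand) encodes a long pentraxin, a pattern recognition protein that binds C1q and is made at sites of inflammation by macrophages and stromal cells. It was at 1.47, 2.34, 5.81 and 2.08 CPM in the 4 anti-LIF tumours, against 1.95, 0.714, 1.06 and 2.43 CPM in the 4 IgG tumours. Tumour KPCL-PCC_354_GA was high and the other 3 anti-LIF tumours lay within the range of the IgG arm. The log2 fold change was 0.93 ± 0.51 with an adjusted p of 0.194. The transcript lies within the span of Veph1, and without a stated strand setting reads of overlapping genes cannot be told apart. When scaled to the epithelial list, Lcn2, Hp, Orm2 and Ptx3 were all called higher (log2 fold changes 1.16, 1.28, 1.73 and 1.98), beside the median of 1.06 for all genes.

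Levels per transcript length were compared in the authors' deposited FPKM, whose table lists another transcript of Itih4 than the count table. In anti-LIF tumours Saa3 stood first at a mean of 4560 FPKM (range 1359 to 9437), followed by Lcn2 at 224 FPKM (157 to 300.3) and Hp at 62.8 FPKM (44.3 to 78.9), and the ranges of these 3 did not overlap. Saa1 (3.47 FPKM), Itih4 (2.51), Orm2 (1.497), Orm1 (1.34), Ptx3 (1.18) and Saa2 (0.566) followed, and each range overlapped the next. Saa4, at 0.00525 FPKM, did not overlap Saa2. In IgG tumours Saa3 also stood first by its mean, at 527 FPKM (325 to 799), but its range just overlapped that of Lcn2 at 222 FPKM (176 to 328). Hp followed at 59.5 FPKM and Orm1 at 5.22 FPKM, and their ranges overlapped neither each other nor the genes beside them. Below them were Orm2 (1.06 FPKM), Ptx3 (0.676), Itih4 (0.290), Saa1 (0.131) and Saa2 (0.108), each overlapping the next, and Saa4 at 0.0158 FPKM. Saa1 and Itih4 stood 4th and 5th with anti-LIF and 8th and 7th with IgG, while Orm1 stood 7th with anti-LIF and 4th with IgG.

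Within each arm the genes did not follow a common order. Saa3 and Saa1 ranked the anti-LIF tumours alike, KPCL-PCC_227_GA, KPCL-PCC_391_GA, KPCL-PCC_310_GA and KPCL-PCC_354_GA from high to low. Itih4 ranked them KPCL-PCC_310_GA, KPCL-PCC_354_GA, KPCL-PCC_227_GA and KPCL-PCC_391_GA. In the IgG arm Saa3, Itih4 and Lcn2 had the same order, KPCL-PCC_203_G, KPCL-PCC_393_G, KPCL-PCC_345_G and KPCL-PCC_343_G. Likeness is given as Pearson r of log2 CPM over the 8 libraries after subtracting each arm's mean. It is a description without a test, since each arm holds only 4 libraries and these differ in scaling and cell mixture. Within the anti-LIF arm, TMM factors ran from 0.844 to 0.986 and acinar markers from 0.301 to 1.59% of counts. Saa1 with Saa3 had r = 0.81 (Spearman rho 0.79, and r = 0.49 without the 2 libraries farthest from the median of Saa1). Lcn2 with Orm2 had r = -0.89 (rho -0.86, and -0.91 without the 2 farthest). Saa3 with Itih4 had r = -0.09 (rho 0, and 0.29 without the 2 farthest).

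Against the marker lists, Itih4 had r = 0.85 with the acinar list (rho 0.74, and 0.45 without the 2 libraries farthest in that list) and -0.06 with the macrophage list (rho -0.31). Saa3 had r = 0.71 with the macrophage list (rho 0.60, and 0.61 without the 2 farthest) and -0.11 with the acinar list (rho -0.19). It also had r = 0.61 with the neutrophil list (rho 0.71, and 0.12 without the 2 farthest). With the mesothelial list it had -0.62 (rho -0.24) and with the hepatocyte list -0.60 (rho -0.60). Lcn2 had r = 0.69 with the epithelial list (rho 0.76, and 0.76 without the 2 farthest) and 0.73 with the neutrophil list (rho 0.79). It also had 0.67 with the endothelial list (rho 0.83) and 0.63 with the fibroblast list (rho 0.69). For Saa3 and Lcn2 these values do not single out a cell type. Of all tested genes, those most like Saa3 across the 8 libraries were Cnbd2 (r = 0.98), Mfhas1 (0.97) and Mark4 (0.97). Those most like Lcn2 included Uts2b (0.98) and 9030625G05Rik (0.97), and those most like Hp were Slamf6 (0.97), Adap1 (0.97) and Baiap3 (0.96). They are the highest values in a search of 14711 genes over 8 libraries, which can be this high by chance, so nothing is read from them.

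**Figure D4:**
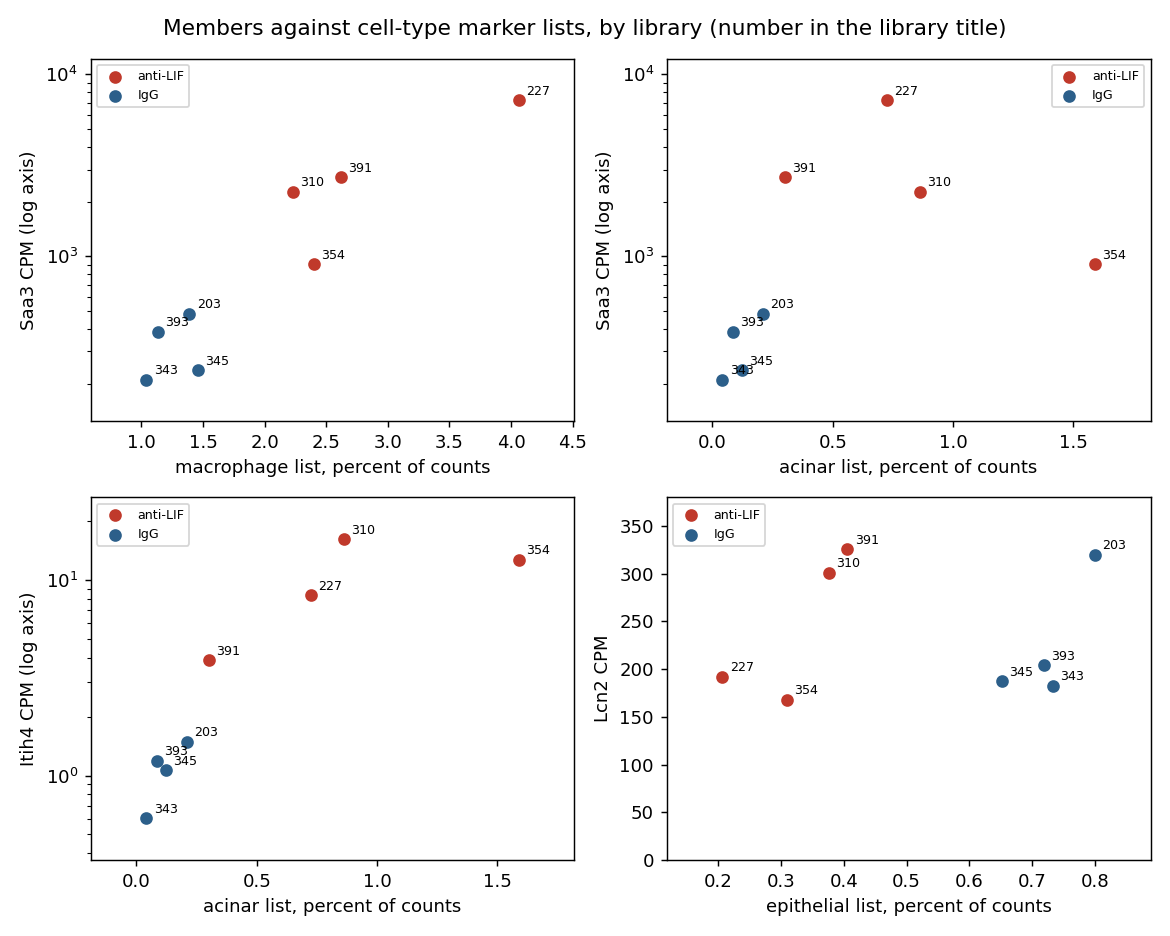
CPM of Saa3, Itih4 and Lcn2 in each library (vertical axes, logarithmic for Saa3 and Itih4) against the percent of counts in a marker list, anti-LIF in red and IgG in blue, with the number in each library's title. Saa3 is highest in tumour KPCL-PCC_227_GA, which has the most macrophage counts (4.06%), while tumour KPCL-PCC_354_GA, with the most acinar counts (1.59%), has the lowest Saa3 and the second highest Itih4 of the anti-LIF arm. With IgG, macrophage counts are highest in KPCL-PCC_345_G (1.46%) and Saa3 is highest in KPCL-PCC_203_G.

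Other plasma acute-phase genes were then set beside the 10. Of 27 listed genes 16 were tested, 5 rose and 2 fell (43.8%, beside 32.2% of all tested genes), with a median log2 fold change of 0.22 beside -0.0063 for all genes. Cp, which encodes the copper-carrying ferroxidase ceruloplasmin, was at 577 ± 335 CPM with anti-LIF and 182 ± 65.6 CPM with IgG (3.18-fold higher, adjusted p = 0.0137). Complement factor B, Cfb, was at 414 ± 177 CPM with anti-LIF and 172 ± 24.6 CPM with IgG (2.402-fold higher, adjusted p = 0.0106). Il1rn, whose product blocks the IL-1 receptor, was at 453 ± 78.0 CPM with anti-LIF and 293 ± 34.7 CPM with IgG (1.55-fold higher, adjusted p = 0.0121). C3, the central complement component, and Serpina3g, a protease inhibitor, were the other 2 that rose, by 2.25-fold and 2.37-fold, and were named after their values were seen. C3 was at 1430.4 ± 272 CPM with anti-LIF and 636 ± 329 CPM with IgG, and Serpina3g was at 11.8 ± 3.40 CPM with anti-LIF and 4.95 ± 2.32 CPM with IgG. The calls of Cp, Cfb and Il1rn remained with each library left out, although that of Il1rn was lost by library size alone (adjusted p = 0.0523) and on both FPKM scales, while those of C3 and Serpina3g were lost in 6 and 4 of the 8 such fits (adjusted p up to 0.0763 and 0.0688).

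The 2 that fell were metallothioneins, which bind zinc and copper. Mt2 was at 76.5 ± 17.3 CPM with anti-LIF and 203.2 ± 51.6 CPM with IgG (2.66-fold lower, adjusted p = 0.00469), and Mt1 was at 211 ± 32.1 CPM with anti-LIF and 331 ± 63.1 CPM with IgG (1.57-fold lower, adjusted p = 0.0185). Scaled to the epithelial list, 10 of the 16 were called higher and 0 lower, beside 11376 higher and 158 lower of all 14711 tested genes. Nothing is read from that count. Mt1 turned to 0.41 there, and Mt2 was at -0.38 and no longer called (adjusted p = 0.193). Without anti-LIF tumour KPCL-PCC_354_GA the list had 4 calls, and that of Mt1 was not among them (adjusted p = 0.0512).

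Of 8 negative acute-phase genes, whose plasma proteins fall during inflammation, 7 were tested. By edgeR 1 fell and 0 rose (14.3% called, beside 32.2% of all tested genes), with 3 higher at an unadjusted p under 0.05, 2 called higher by DESeq2 and 0 by limma-voom, and the median log2 fold change was 0.79. The gene that fell was Ttr, which encodes the thyroid hormone carrier transthyretin, at 8.27 ± 3.50 CPM with anti-LIF and 20.5 ± 8.03 CPM with IgG (2.48-fold lower, adjusted p = 0.0262). That call was lost without anti-LIF tumour KPCL-PCC_354_GA, IgG tumour KPCL-PCC_343_G or IgG tumour KPCL-PCC_345_G (adjusted p up to 0.0690), and when scaled to the epithelial list (-0.37, adjusted p = 0.2801). The list had 2 calls, 1 in each direction, without anti-LIF tumour KPCL-PCC_227_GA or KPCL-PCC_391_GA and without IgG tumour KPCL-PCC_203_G or KPCL-PCC_393_G. Alb, which encodes albumin, was at 2.93 ± 0.645 CPM with anti-LIF and 1.69 ± 0.764 CPM with IgG (adjusted p = 0.109).

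Close relatives of the 10 genes (other lipocalins, pentraxins, inhibitor chains and Orm3) were called lower with anti-LIF where they were called by edgeR with TMM scaling. Of 8 tested of 13 listed, 3 fell (37.5%, beside 32.2% of all tested genes called in either direction) and 0 rose by edgeR, DESeq2 or limma-voom, with 0 higher at an unadjusted p under 0.05, and the median log2 fold change was -0.56. Nptx1, a pentraxin of nerve cells, was at 17.0 ± 2.398 CPM with anti-LIF and 52.9 ± 11.1 CPM with IgG (3.12-fold lower, adjusted p = 0.00227). Its relative Nptx2 was at 3.42 ± 1.22 CPM with anti-LIF and 9.73 ± 4.43 CPM with IgG (2.85-fold lower, adjusted p = 0.0187). Ambp, which encodes alpha-1-microglobulin and bikunin, was at 18.5 ± 3.54 CPM with anti-LIF and 31.3 ± 9.46 CPM with IgG (1.69-fold lower, adjusted p = 0.0350). Scaled to the epithelial list Nptx1 was still called lower (-0.58, adjusted p = 0.0284), the call of Nptx2 was lost (-0.54, adjusted p = 0.159) and Ambp turned to 0.26. Under that scaling 2 relatives were called higher, Itih2 (0.81, adjusted p = 0.0214) and Itih5 (1.01, adjusted p = 0.00743), which were at -0.17 and 0.0035 with TMM. Of all 14711 tested genes 11376 were called higher there. Without anti-LIF tumour KPCL-PCC_354_GA, or without IgG tumour KPCL-PCC_343_G, 1 of the 3 calls was made, that of Nptx1.

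Among the cytokines that induce the acute phase, 9 of 10 were tested, 1 rose and 2 fell (33.3%, close to the 32.2% of all tested genes), with a median log2 fold change of 0.13. Lif itself was at 127 ± 7.08 CPM with anti-LIF and 81.4 ± 15.6 CPM with IgG (1.56-fold higher, adjusted p = 0.00964). Ctf1 and Clcf1, cytokines that also signal through gp130 and Lifr, were lower: Ctf1 was at 2.10 ± 0.693 CPM with anti-LIF and 4.52 ± 0.521 CPM with IgG (2.15-fold lower, adjusted p = 0.0129), and Clcf1 was at 40.2 ± 11.0 CPM with anti-LIF and 70.2 ± 17.9 CPM with IgG (1.75-fold lower, adjusted p = 0.0337). Scaled to the epithelial list Ctf1 was at -0.10 and no longer called (adjusted p = 0.733), and Clcf1 turned to 0.20 on the log2 scale. The calls of Lif and Ctf1 remained with each library left out, and that of Clcf1 was lost in 4 of 8 such fits (adjusted p up to 0.0842). Il6, the main inducer in liver, did not pass, at 71.9 ± 17.3 CPM with anti-LIF and 90.1 ± 19.9 CPM with IgG (adjusted p = 0.269), nor did Il1b (adjusted p = 0.429), Tnf (adjusted p = 0.492) or Osm (adjusted p = 0.688).

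Of the 11 receptor genes, all tested, 4 rose and 1 fell (45.5%, beside 32.2% of all tested genes), with a median log2 fold change of -0.02. Lifr was at 185 ± 55.9 CPM with anti-LIF and 75.4 ± 16.2 CPM with IgG (2.46-fold higher, adjusted p = 0.00663), while its partner Il6st was at 133 ± 8.37 CPM with anti-LIF and 135 ± 8.95 CPM with IgG (adjusted p = 0.847). The TNF receptor gene Tnfrsf1b was at 344 ± 76.0 CPM with anti-LIF and 229 ± 11.3 CPM with IgG (1.503-fold higher, adjusted p = 0.0165), and Il11ra1 was at 18.0 ± 2.84 CPM with anti-LIF and 12.1 ± 1.70 CPM with IgG (1.48-fold higher, adjusted p = 0.0215). The fourth that rose, named after its value was seen, was Tnfrsf1a at 264 ± 34.4 CPM with anti-LIF and 209 ± 17.6 CPM with IgG (1.26-fold higher, adjusted p = 0.0455). Il1r2, the decoy receptor for IL-1, was at 36.8 ± 22.1 CPM with anti-LIF and 136 ± 13.7 CPM with IgG (3.71-fold lower, adjusted p = 0.0134), and it was also called lower when scaled to the epithelial list (-0.97). Lifr, Tnfrsf1b and Il1r2 kept their calls with each library left out. Il11ra1 lost it without IgG tumour KPCL-PCC_203_G or KPCL-PCC_343_G, where 3 of the 11 were called, and Tnfrsf1a lost it in 7 of 8 such fits (adjusted p up to 0.118).

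Of 13 transcription factors and regulators of the response, all tested, 4 rose and 1 fell (38.5%, beside 32.2% of all tested genes), with a median log2 fold change of 0.32. Nfkb1 was at 202 ± 22.2 CPM with anti-LIF and 133 ± 18.1 CPM with IgG (1.51-fold higher, adjusted p = 0.00815), Nfkb2 was 1.55-fold higher (140.1 ± 20.8 CPM with anti-LIF and 90.6 ± 22.4 CPM with IgG, adjusted p = 0.0294) and Cebpa was 1.46-fold higher (232 ± 52.2 CPM with anti-LIF and 159 ± 20.7 CPM with IgG, adjusted p = 0.0319). Nfkbia, the inhibitor that NF-kappaB itself induces, was 1.30-fold higher (466 ± 63.7 CPM with anti-LIF and 359 ± 32.2 CPM with IgG, adjusted p = 0.0408) and was named after its value was seen. Stat3 was at 317 ± 34.0 CPM with anti-LIF and 331 ± 15.1 CPM with IgG (adjusted p = 0.651), and Socs3, a feedback inhibitor that STAT3 induces, was at 692 ± 185 CPM with anti-LIF and 553 ± 89.1 CPM with IgG (adjusted p = 0.255). Neither passed. Nfkb1 kept its call with each library left out, and Nfkb2, Cebpa and Nfkbia lost theirs in 4, 3 and 6 of 8 such fits. Without single libraries, the number of the 13 called ranged from 2 (without IgG tumour KPCL-PCC_343_G) to 5, and it was 3 without IgG tumour KPCL-PCC_203_G, IgG tumour KPCL-PCC_345_G or anti-LIF tumour KPCL-PCC_227_GA.

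**Figure D5:**
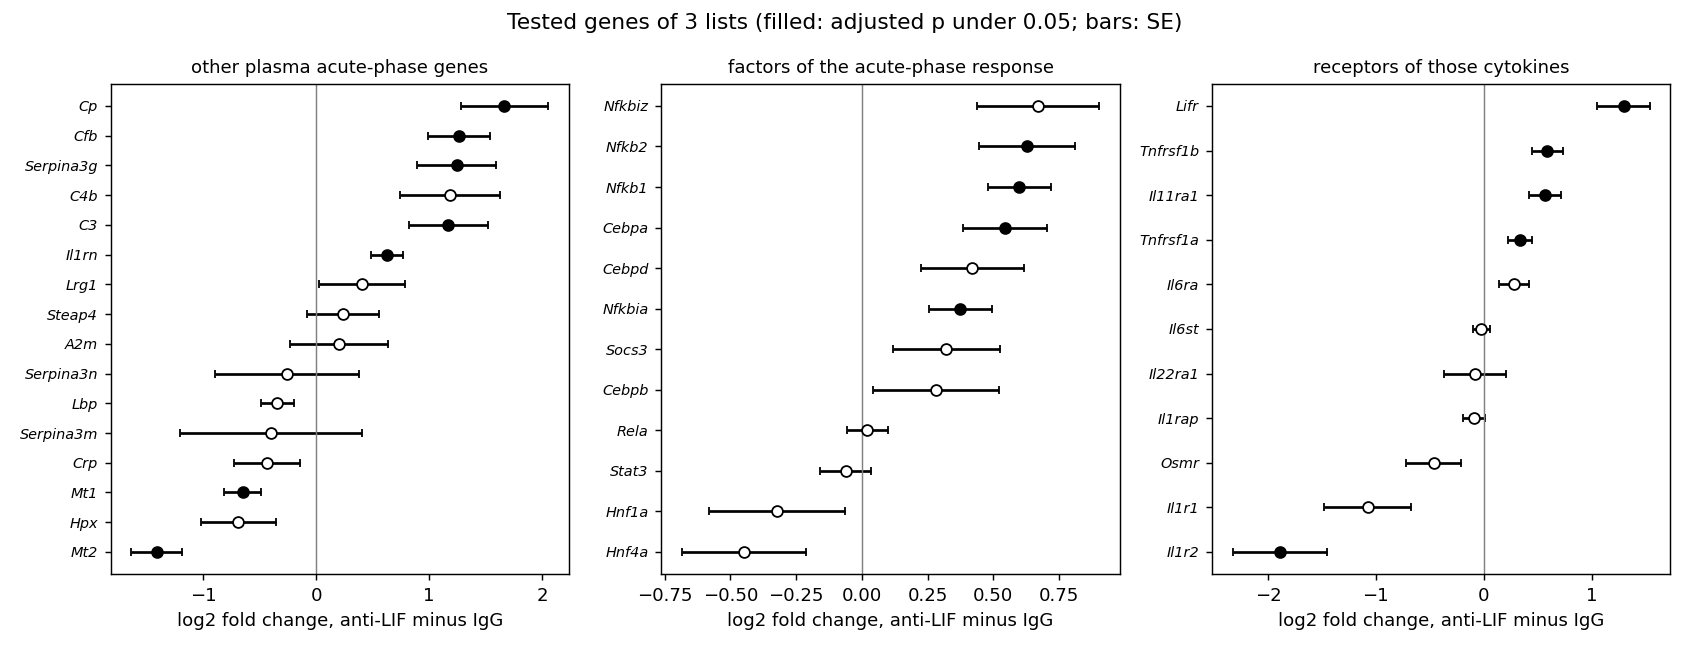
Log2 fold changes (anti-LIF minus IgG; bars are the standard error) of tested genes of 3 lists (all but 1 factor): other plasma acute-phase genes, factors of the acute-phase response, and receptors of the inducing cytokines; filled points had an adjusted p under 0.05. In the first panel 5 genes are filled to the right and 2, Mt1 and Mt2, to the left; Mt1 changes sign when scaled to the epithelial list.

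The last list held receptors and binding partners of the encoded proteins. All 18 were tested, 4 rose and 2 fell (33.3%, close to the 32.2% of all tested genes), with a median log2 fold change of 0.43. C1qa, a complement chain that Ptx3 binds, was at 3409.8 ± 1436 CPM with anti-LIF and 1249.6 ± 196 CPM with IgG (2.73-fold higher, adjusted p = 0.00702). Fcgr3, an Fc receptor that also binds pentraxins, was at 994 ± 317 CPM with anti-LIF and 593 ± 74.2 CPM with IgG (1.68-fold higher, adjusted p = 0.0264). Itgb2 and Itgam, the chains of the integrin Mac-1, were 1.41-fold and 1.89-fold higher (adjusted p = 0.0316 and 0.0403), and Itgam was named after its value was seen. C1qa is itself a member of the macrophage list, whose share of counts was higher with anti-LIF. Ager, which encodes a receptor that binds serum amyloid A, was at 1.97 ± 0.394 CPM with anti-LIF and 5.92 ± 1.45 CPM with IgG (3.00-fold lower, adjusted p = 0.00461). Fgf2, a growth factor that Ptx3 binds, was at 0.392 ± 0.1499 CPM with anti-LIF and 0.924 ± 0.178 CPM with IgG (2.34-fold lower, adjusted p = 0.0261). It had 3, 7, 6 and 8 counts with anti-LIF and 19, 19, 17 and 13 with IgG. Fgf2 passed the filter only through the IgG arm, so its call is a description only, also within the count of 2 that fell. The calls of Ager and Fgf2 were lost when scaled to the epithelial list (-0.55 and -0.24, adjusted p = 0.127 and 0.572). Under that scaling 15 of the 18 were called higher, beside 11376 of all 14711 tested genes, so nothing is read from that count. Cd163, the macrophage receptor for haptoglobin bound to haemoglobin, was at 641 ± 213 CPM with anti-LIF and 353 ± 136 CPM with IgG and did not pass (adjusted p = 0.0654). Slc22a17, which encodes a receptor for lipocalin-2, was at 13.7 ± 2.47 CPM with anti-LIF and 13.1 ± 5.16 CPM with IgG (adjusted p = 0.893). Without IgG tumour KPCL-PCC_343_G 2 of the 18 were called, and 3 without IgG tumour KPCL-PCC_203_G. C1qa and Ager kept their calls in every such fit, and Fcgr3, Itgb2, Itgam and Fgf2 lost theirs in 3, 5, 6 and 4 of 8.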

How the data were processed

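RNA-seq libraries of EpCAM-sorted tumour cells, 4 per arm and 1 per mouse, were used. Per the submitters' processing notes, reads were checked with FastQC 0.11.2 and aligned with STAR 2.4.0k to mm10, and the authors used edgeR 3.6.8. Per the file headers, HOMER counted exonic reads per gene; no source used here gives its version, the strand setting or the read length. The deposited counts are raw, 1 row per gene. The deposited FPKM table holds counts scaled by the authors to transcript length and library total: all 168000 values of 21000 shared transcripts were recomputed within 0.002 FPKM, and 9 of the 10 genes use the same transcript in both tables (Itih4 does not). No column of values stayed unused (0 columns). Counts differed between any pair of libraries at 98.6% or more of tested genes.

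The counts were tested with edgeR 4.0.16 under R 4.3.3 (filterByExpr at its defaults, TMM scaling, quasi-likelihood test, all 14711 genes, Benjamini-Hochberg threshold 0.05), on 4 against 4 libraries without covariates. Fold changes take anti-LIF over IgG, with the standard error taken from the F statistic. Log2 CPM for likeness used a prior count of 2. The script was tested on simulated counts. Alternatives were other scalings, DESeq2 1.42.0, limma-voom and limma-trend (limma 3.58.1) on log2(FPKM + 1) or log2(FPKM + 0.1), other filters, leaving out each library, and a covariate made of the acinar list (its mean log2 CPM). Transcripts and promoters were aligned with Biopython 1.88, the transcripts being those of the GENCODE annotation supplied; promoters come from RefSeq (GRCm38.p6). A planned alignment of the proteins was not run. The 10 genes and all lists were chosen with earlier results of these data known. Named genes are the 10, the 3 lowest p in each direction among called genes of each list, genes of the question (Epcam, Lif, Lifr, Il6st, Stat3, Socs3), and the 3 genes most like each tested gene of the set with a mean of at least 10 CPM; any other gene was named after its value was seen, for its known role, its place beside a gene of the set or its list. A few genes that this rule names, and 1 allele of the genotype, are not reported here.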

Additional observations from a re-analysis of the deposited data

Results flagged for a closer look

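Among 40 groups of 4 libraries examined (the 10 genes and the 10 marker lists in each arm), 3 had 1 library whose gap to the nearest other exceeded Dixon's 95% critical value as a share of the group's range; chance alone gives about 1 in 20 groups. Lcn2 was at 319.9 CPM in IgG tumour KPCL-PCC_203_G, with the other 3 IgG tumours between 183 and 204 CPM. Saa2 was at 0.152 CPM in IgG tumour KPCL-PCC_345_G, with the other 3 between 0.0540 and 0.0573 CPM, a difference of 3 counts against 1 in each. Saa4 was at 0.0639 CPM in anti-LIF tumour KPCL-PCC_227_GA, which is 1 count, with the other 3 at 0.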

How the results depend on the processing

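Saa1, Saa3 and Itih4 were called higher with each library left out, with log2 fold changes of 4.40 to 5.51, 2.58 to 3.64 and 2.94 to 3.51. They were also called higher under every other alternative that tested them, except the acinar covariate; Saa1 was not tested at 1 CPM in 4 libraries. Scaled to the epithelial list, 11534 genes were called, with 7 of the set, 5 negative acute-phase genes, 5 cytokines, 10 receptors, 12 factors and 15 partners; Lcn2 was at 1.16, Hp at 1.28, Orm2 at 1.73, Ptx3 at 1.98, Orm1 at -0.82, and Epcam (0.099), Mt1 (0.41), Ambp (0.26) and Clcf1 (0.20) turned positive. With the acinar score as a covariate 0 genes were called, none in the set or in any of the 7 lists; Saa1 was at 6.36 (adjusted p = 0.696), Saa3 at 2.82 (adjusted p = 0.710), Itih4 at 1.08, Orm1 at -0.33, Orm2 at -0.37, Ptx3 at -0.79 and Nfkb2 at -0.056, and the score and the arm cannot be told apart. Lcn2 reversed by library size alone (-0.0076), on log2(FPKM + 1) (-0.0049) and on log2(FPKM + 0.1) (-0.0050). Negative acute-phase calls were 3 with DESeq2, and 2 on either FPKM scale and with no filter; factor calls were 3 on either FPKM scale. The cause was not tested. With 1 library left out, calls ran from 2974 (without IgG tumour KPCL-PCC_343_G) to 4354 genes, 4 to 8 other plasma genes, 1 to 2 negative genes, 1 to 3 relatives, 3 to 5 receptors, 2 to 5 factors and 2 to 6 partners; Lcn2 ran from -0.019 (without anti-LIF tumour KPCL-PCC_391_GA) to 0.36 and Orm1 from -2.24 to -1.48. The hepatocyte share, anti-LIF minus IgG, ran from -0.0035 to 0.0095 and the fibroblast share from -0.0010 to 0.0230 percentage points. By median FPKM, Orm1 stood 6th and Orm2 7th in anti-LIF tumours. Of the other called genes named in the text, 32 were followed through these fits. Of these, 16 kept their call with each library left out and 16 lost it at least once. Msln, Fabp4, Mfhas1 and 9030625G05Rik were also called and were not followed. By library size alone the calls of Il1rn, C3, Tnfrsf1a, Nfkb2, Nfkbia, Itgb2 and Itgam were lost, on either FPKM scale those of Il1rn, Tnfrsf1a, Nfkb2 and Nfkbia, and with no filter those of Tnfrsf1a and Nfkbia. No paired analysis was possible because no number in the library titles occurs in both arms. Nothing says that litters or days were shared. The edgeR p-values set the difference between the arms against the spread between these mice. Genes with a few counts, such as Saa1 with IgG, Saa2 and Saa4, are limited by depth.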
